A study of Mus musculus with 8 samples.

Results

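The genes described here are 10 that code for gap junction proteins (Gja1, Gja4, Gja5 and Gjc1), cadherins (Cdh1 and Cdh2), a junction scaffold (Tjp1) and actin regulators of transzonal projections (Myo10, Fscn1 and Daam1). They were taken by gene symbol from the 55157 genes of the deposited expression table, and each symbol matched 1 row. The rule itself used no measured values, but it was set with earlier results of these data known. The study profiled RNA of whole type 7 to 8 ovarian follicles from Kunming mice at postnatal day 21. All 8 libraries came from animals given PMSG, pregnant mare serum gonadotropin, which acts like follicle-stimulating hormone, and follicles were collected 24 hours after injection. The control group (n = 4) had received PMSG with normal saline and the melatonin group (n = 4) PMSG with melatonin. Neither the melatonin dose nor the number of animals or follicles behind a library is given in the sources used here, so the p-values below reflect library-to-library spread, part of which may be technical.

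In a growing follicle the oocyte is enclosed by granulosa cells, and small molecules pass between the cells through gap junctions built of connexins. Gja1 codes for the main connexin of granulosa cells, and Gja4 for the connexin that couples the oocyte to the granulosa cells around it. Cadherins hold the cells together at adherens junctions. Granulosa cells reach the oocyte through the zona pellucida by transzonal projections, thin actin-rich extensions related to filopodia, at whose tips cadherin contacts and gap junctions form. Myo10 (a motor that carries cargo to filopodium tips), Fscn1 (fascin, which bundles actin) and Daam1 (a formin that elongates actin filaments) take part in building them.

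Promoter windows were read for 4 members, because they stand for the 2 main connexins of the follicle and for 2 of the projection genes. RefSeq windows on GRCm38.p6 run from 250 bases before to 50 bases after a start site, and 7 of the 10 symbols matched, all but Gjc1, Cdh1 and Cdh2. Each sequence is written 5′ to 3′ on the strand of the gene, with motif matches in capitals. Both strands were searched for the activator protein 1 motif TGANTCA, the cyclic AMP response element TGACGTCA, the GC box GGGCGG, whose matches can overlap each other, and the core promoter motif TATAAA. The windows are chr10:56377050-56377349 for Gja1 (plus strand), chr4:127313990-127314289 for Gja4 (minus strand), chr5:142960105-142960404 for Fscn1 (plus strand) and chr15:25622300-25622599 for Myo10 (plus strand).
Gja1: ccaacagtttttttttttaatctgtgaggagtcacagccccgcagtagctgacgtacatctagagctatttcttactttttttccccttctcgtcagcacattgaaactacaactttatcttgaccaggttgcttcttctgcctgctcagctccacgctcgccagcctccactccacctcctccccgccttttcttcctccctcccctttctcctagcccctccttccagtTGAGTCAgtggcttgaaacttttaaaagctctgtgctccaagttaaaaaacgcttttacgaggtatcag
Gja4: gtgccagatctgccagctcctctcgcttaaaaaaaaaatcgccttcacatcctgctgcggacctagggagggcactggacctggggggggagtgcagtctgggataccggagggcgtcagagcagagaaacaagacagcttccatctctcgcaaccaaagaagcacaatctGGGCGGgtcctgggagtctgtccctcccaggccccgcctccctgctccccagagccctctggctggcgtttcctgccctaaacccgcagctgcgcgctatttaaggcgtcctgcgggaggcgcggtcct
Fscn1: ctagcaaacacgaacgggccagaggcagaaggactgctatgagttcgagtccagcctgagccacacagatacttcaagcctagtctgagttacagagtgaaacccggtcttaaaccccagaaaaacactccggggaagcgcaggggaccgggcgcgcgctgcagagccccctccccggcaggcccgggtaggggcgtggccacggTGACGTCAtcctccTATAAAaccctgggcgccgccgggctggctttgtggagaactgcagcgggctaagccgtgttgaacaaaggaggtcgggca
Myo10: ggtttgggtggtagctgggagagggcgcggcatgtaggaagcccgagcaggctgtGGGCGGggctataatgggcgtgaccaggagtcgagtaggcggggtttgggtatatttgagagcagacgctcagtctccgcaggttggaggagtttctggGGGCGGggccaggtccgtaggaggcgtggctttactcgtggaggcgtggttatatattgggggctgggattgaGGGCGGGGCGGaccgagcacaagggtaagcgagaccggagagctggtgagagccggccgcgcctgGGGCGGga
Gja1 held an activator protein 1 match at -19 from the start site, and 7.81% of all 32851 windows held one. Fscn1 held a cyclic AMP response element match at -45, found in 1.79% of windows, followed by a core promoter motif match at -31, found in 13.6%. Gja4 and Myo10 held GC box matches, which 35.7% of windows held. Among the 9 windows of the matched members, the activator protein 1 motif was found in 1 (Gja1), the cyclic AMP motif in 1 (Fscn1), the core promoter motif in 2 (Fscn1 and a window of Myo10 that is not shown) and the GC box in 5 (Daam1, Gja4, Gja5, Myo10 and Tjp1). These matches describe the letters of the windows and not factor binding.

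Levels are given as FPKM, fragments per kilobase of exon scaled by the mapped fragments of the library, so they are adjusted to gene length and library size. The length that matched the values was that of all annotated exons of a gene, 10257 bases for Gja1 and 1685 for Gja4. A gene whose transcripts use only part of these exons gets a lower FPKM, so ratios, shares and orders between genes are approximate. Recovered totals ran from 17451113 to 22034315 fragments per control library and from 18553189 to 23649203 per melatonin library. A gene was tested when its mean over the 8 libraries was at least 1 FPKM, which 14738 genes and 9 of the 10 members reached; the member below was Gja5. Limma on log2(FPKM + 1) called 0 of 14738 genes (0%) at an adjusted p under 0.05, and 2821 (19.1%) were under 0.05 without adjustment. A limma-voom fit of the fragment counts called 0 as well, with 2740 under 0.05 without adjustment. On the first principal component (26.5% of the variance) the 4 control libraries lay between -29.9 and -0.49, with control replicate 3 at the far end, and the 4 melatonin libraries between 5.81 and 17.4.

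None of the 9 tested members passed the threshold. In control follicles the members' mean levels ran from 631 FPKM for Gja1 to 0.046 FPKM for Gja5, and the log2 fold changes (melatonin minus control, on the log2(FPKM + 1) scale) ran only from -0.22 to 0.12. Of the 9, 6 had a negative fold change, beside 52.5% of all tested genes, and 3 a positive one, beside 47.5%. The median was -0.08 beside -0.01 over all tested genes. An unadjusted p under 0.05 was found for 1 of 9 (11.1%), Myo10, beside 19.1% of all tested genes and 9.74% in its direction. Myo10 was also the 1 member whose groups did not overlap, beside 11.7% of all tested genes and 5.94% in its direction. The members' shares in either direction were near or below the background.

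**Figure D1:**
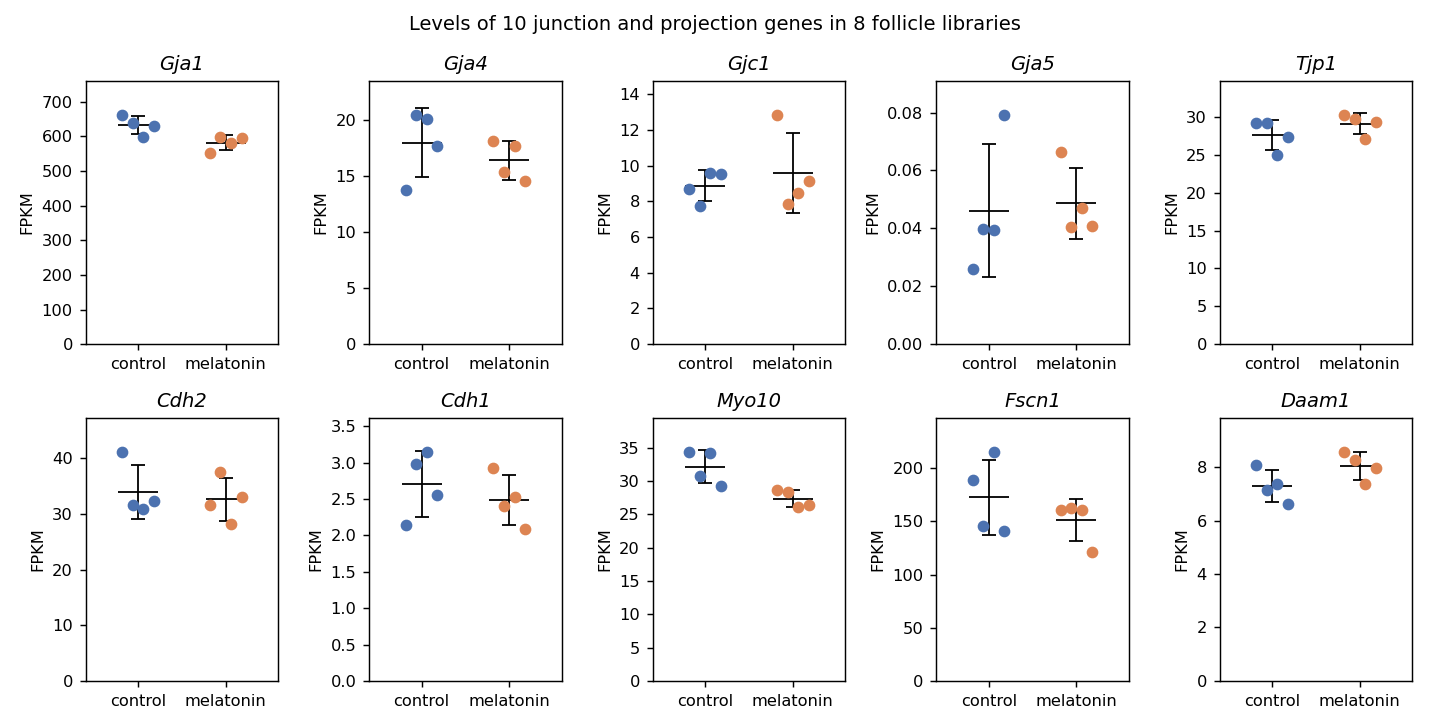
FPKM (linear y axes starting at 0) of the 10 members in 4 control (blue) and 4 melatonin (orange) libraries; points are libraries, horizontal lines group means and bars 1 SD. Groups overlap in every panel except Myo10, where melatonin libraries reach at most 28.6 FPKM and control libraries start at 29.3 FPKM.

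Gja1 (chromosome 10, 56377330 to 56402513) was one of the most abundant transcripts of the follicle, at the 99.8th percentile of mean FPKM among tested genes. Its level was 660.2, 639, 597 and 628 FPKM in control replicates 1 to 4 and 550.2, 598, 580.5 and 596 FPKM in melatonin replicates 1 to 4. Melatonin replicates 1, 3 and 4 lay below every control library, and melatonin replicate 2 (597.6 FPKM) just exceeded control replicate 3 (597.4 FPKM). Means were 631 ± 26.2 and 581 ± 21.9 FPKM (SD, n = 4 each), and the log2 fold change of -0.12 ± 0.062 (SE) did not pass (limma, adjusted p = 0.331). Its 95% interval of -0.26 to 0.02 corresponds to a melatonin level between 0.835 and 1.02 times that of control. The size of this difference depended on scaling, at -0.003 after quantile normalization, which replaces each value by the mean at its rank, and -0.18 after removal of GC content and length trends. Gja1 alone made up 94.1% to 96.3% of the summed FPKM of 20 connexin genes in each library.

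None of the 8 granulosa cell markers passed the threshold (limma). Of these 8 markers 7 had a negative fold change, beside 52.5% of all tested genes, and none was at 0. Their summed level was 7571 to 9961 FPKM in control and 6420 to 7325 FPKM in melatonin libraries, without overlap. Inha, an inhibin subunit, made up 73.6% to 81.3% of that sum, and without it the sums overlapped, at 1687 to 2628 FPKM and 1287 to 1772 FPKM. Groups did not overlap for 2 of the 8 markers, Inha and Hsd17b1, an enzyme of estradiol synthesis. Over all tested genes that share was 11.7%, and 5.94% with melatonin below. An unadjusted p under 0.05 (limma) was found for 3 of the 8, Hsd17b1, Fshr and Inhbb, all lower with melatonin. Such a p was found for 19.1% of all tested genes, and for 9.74% in that direction. The markers' part in the Gja1 values was not tested. In whole follicles, fewer cells of a type and less RNA per cell cannot be told apart.

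Gja4 (chromosome 4, 127311421 to 127314039), the oocyte's connexin, was present at a far lower level than Gja1. Control replicates 1 to 4 had 13.8, 20.4, 20.01 and 17.7 FPKM, and melatonin replicates 1 to 4 had 18.1, 15.3, 17.7 and 14.5 FPKM. Every melatonin library lay inside the control range, whose lowest value was control replicate 1. Means were 17.95 ± 3.04 and 16.4 ± 1.74 FPKM (SD, n = 4 each), with a log2 fold change of -0.11 ± 0.13 (SE; limma, adjusted p = 0.641) and a 95% interval of -0.40 to 0.17. In FPKM, Gja1 exceeded Gja4 by 29.8 to 48.0 times within single libraries. That ratio was 36.2 ± 8.23 for control against 35.85 ± 4.998 for melatonin (n = 4 each, SD; two-sided exact permutation p = 1, and 1 adjusted over the 4 ratios tested).

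The level of Gja4 varied between libraries along with an oocyte transcript. Gdf9, an oocyte-secreted growth factor used here as a measure of the oocyte's share of a library, was at 84.7, 131, 105 and 105 FPKM in control and 103, 99.97, 111 and 77.6 FPKM in melatonin replicates 1 to 4. Control replicate 1 and melatonin replicate 4 were the lowest libraries of their groups for both genes. Across the 8 libraries the coefficient of variation was 14.2% for Gja4 and 15.9% for Gdf9 but 8.34% for their ratio. The part of the oocyte's share in the Gja4 values was not tested. Gja4:Gdf9 was 0.169 ± 0.015 for control against 0.169 ± 0.0154 for melatonin (n = 4 each, SD; exact permutation p = 1, adjusted p = 1). The 10 oocyte markers summed to 322 to 503 FPKM in control and 307 to 401 FPKM in melatonin libraries, and none was at 0. Of their fold changes 9 of 10 were negative, beside 52.5% of all tested genes.

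**Figure D2:**
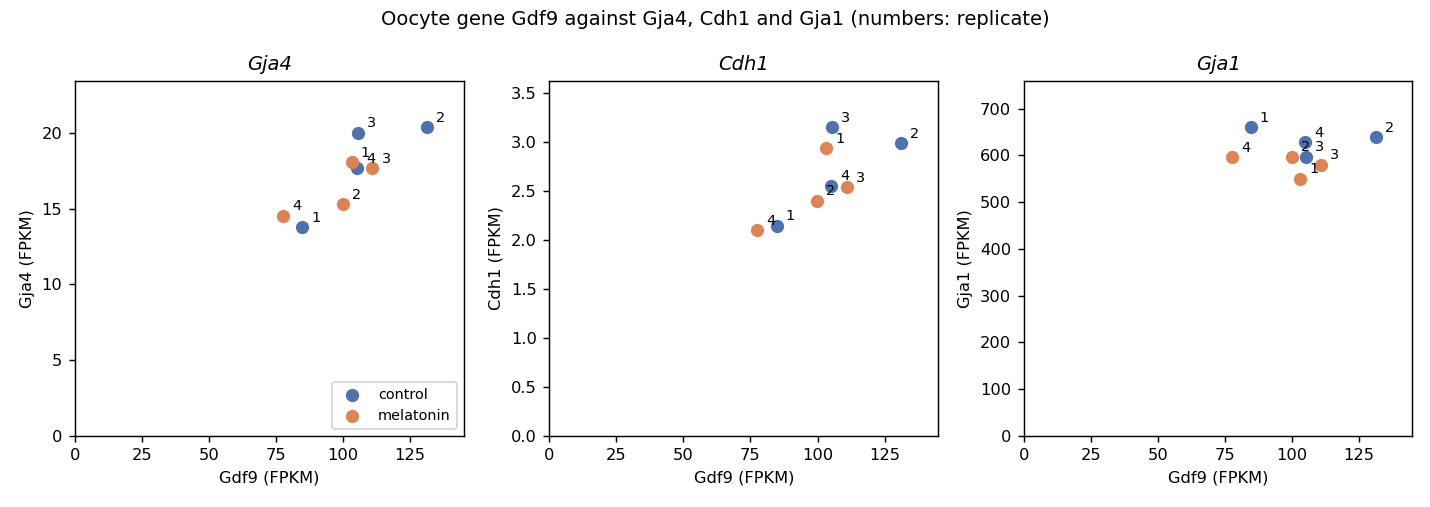
Gja4, Cdh1 and Gja1 (y axes, FPKM) against Gdf9 (x axes, FPKM) in each library; colours give the group and numbers the replicate. Gja4 and Cdh1 are low in control replicate 1 and melatonin replicate 4, where Gdf9 is low (84.7 and 77.6 FPKM), while Gja1 is at 660.2 and 596 FPKM there.

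Among 5681 other genes averaging 10 FPKM or more, those whose log2(FPKM + 1) followed Gja4 most closely over the 8 libraries were Oas1c (Pearson r = 0.97, Spearman rho = 1), Fbxw14 (r = 0.97, rho = 0.90) and Tle6 (r = 0.95, rho = 0.88). For Gja1 they were Zfp36 (r = 0.97, rho = 0.86), Kars (r = 0.97, rho = 0.98) and 2810025M15Rik (r = 0.96, rho = 0.95). These are the highest correlations among those 5681 genes, over libraries that share depth and group structure, and they are given as a description without a test.

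Gjc1 and Gja5 completed the connexins. Gjc1, another connexin, had 8.69, 7.75, 9.56 and 9.54 FPKM in control and 12.8, 7.84, 8.49 and 9.15 FPKM in melatonin replicates 1 to 4. One library, melatonin replicate 1, stood above the control range, and the other three lay inside it. The log2 fold change was 0.08 ± 0.14 (SE; limma, adjusted p = 0.777), and -0.06 without melatonin replicate 1. Gja5, a connexin known from arterial endothelium and the heart, was hardly detected, at 3, 4, 5 and 10 fragments in control and 9, 5, 5 and 5 fragments in melatonin replicates 1 to 4, or 0.026 to 0.079 FPKM and 0.040 to 0.066 FPKM. At this depth no difference in Gja5 was detectable. Endothelial markers were low but present, and 6 of them summed to 6.88 to 10.6 FPKM in control and 5.59 to 8.31 FPKM in melatonin libraries. Cdh5, the most abundant, was at 3.69 ± 0.72 FPKM for control against 2.62 ± 0.54 for melatonin (n = 4 each, SD; limma, adjusted p = 0.217). Control and melatonin means were 1.57 and 1.39 FPKM for Pecam1 and 1.51 and 1.30 FPKM for Kdr. They were 0.68 and 0.58 FPKM for Tie1, 0.26 and 0.20 FPKM for Emcn, and 0.62 and 0.65 FPKM for Tek. Groups overlapped for all 6 markers.

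Few of the other 16 connexins were measurable. Apart from Gja1, Gja4 and Gjc1, the 1 further connexin with a mean of at least 1 FPKM was Gjc3, at 0.78 ± 0.34 FPKM for control against 1.44 ± 0.52 for melatonin (n = 4 each, SD; limma, adjusted p = 0.242). Gjc3 passed the filter of 1 FPKM through its melatonin libraries, so its test and its direction are not independent of that filter. Gjd2 and Gje1 were listed at 0 in all 8 libraries. Panx1, a pannexin that forms channels to the outside of the cell, had 7.84 ± 0.51 and 7.30 ± 0.89 FPKM (adjusted p = 0.558, limma).

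The cadherins differed from each other by an order of magnitude. Cdh2 (N-cadherin), found on granulosa cells and oocytes, had 41.1, 31.5, 30.8 and 32.2 FPKM in control and 31.7, 37.5, 28.2 and 33.0 FPKM in melatonin replicates 1 to 4. Control replicate 1 stood alone at the top, and the other seven libraries lay between 28.2 and 37.5 FPKM. The log2 fold change was -0.05 ± 0.11 (SE; limma, adjusted p = 0.820), and its sign turned to 0.04 without control replicate 1 and to 0.01 without melatonin replicate 3.

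Cdh1 (E-cadherin), which is found on the oocyte and on epithelial cells, was scarce, at 2.14, 2.98, 3.15 and 2.55 FPKM in control and 2.93, 2.40, 2.53 and 2.09 FPKM in melatonin replicates 1 to 4. Its lowest libraries were the same as for Gdf9. The groups overlapped (log2 fold change -0.08 ± 0.11 SE, 95% interval -0.34 to 0.17; limma, adjusted p = 0.711). The coefficient of variation over the 8 libraries was 15.0% for Cdh1 and 10.3% for Cdh1:Gdf9, a ratio that was 0.0255 ± 0.0031 for control against 0.0256 ± 0.0026 for melatonin (n = 4 each, SD; exact permutation p = 0.943, adjusted p = 1). Cdh2 exceeded Cdh1 by 13.05 ± 4.27 times for control against 13.3 ± 2.73 times for melatonin (n = 4 each, SD; exact permutation p = 0.857, adjusted p = 1). Surface epithelium markers, another possible source of Cdh1, summed to 49.9 to 77.7 FPKM in control and 42.0 to 47.2 FPKM in melatonin libraries, without overlap. Of their tested fold changes 5 of 5 were negative, beside 52.5% of all tested genes, and none of the 6 markers was at 0. None of the tested ones passed the threshold (limma). Krt8, the most abundant of them in every library, weighs most in the sum. Its groups and those of Krt19 did not overlap, while those of Krt18, Upk3b, Msln and Krt7 did. Groups did not overlap in 11.7% of all tested genes, and in 5.94% with melatonin below. The parts of the oocyte's share and of these markers in the Cdh1 values were not tested.

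Tjp1, which codes for the scaffold protein ZO-1 that ties junction proteins to actin, was among the steadiest members. It had 29.1, 29.1, 24.9 and 27.4 FPKM in control and 30.2, 29.7, 27.1 and 29.4 FPKM in melatonin replicates 1 to 4. Control replicate 3 was the lowest library and the groups overlapped. The log2 fold change was 0.07 ± 0.062 (SE; limma, adjusted p = 0.539), with a 95% interval of -0.07 to 0.21. Control replicate 3 carried much of it, since the value was 0.03 without that library.

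Myo10 (chromosome 15, 25622525 to 25813673) came closest to a difference between the groups. Control replicates 1 to 4 had 34.4, 30.8, 34.2 and 29.3 FPKM, and melatonin replicates 1 to 4 had 28.6, 28.3, 26.1 and 26.4 FPKM. All 4 melatonin libraries were lower than all 4 control libraries, by a narrow margin between control replicate 4 and melatonin replicate 1. Means were 32.2 ± 2.51 and 27.4 ± 1.31 FPKM (SD, n = 4 each), the log2 fold change was -0.22 ± 0.064 (SE), and the unadjusted p of 0.0073 gave an adjusted p of 0.148 over all genes (limma). Its 95% interval, -0.37 to -0.08, corresponds to 0.774 to 0.947 times the control level. The adjusted p ranged from 0.108 to 0.331 over 17 alternative settings, so the gene passed in none of them.

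Fscn1 (chromosome 5, 142960343 to 142973185) was the second most abundant member. Its level was 189, 145.4, 215 and 141 FPKM in control and 160.4, 162, 161 and 121 FPKM in melatonin replicates 1 to 4. Control replicates 1 and 3 were higher than control replicates 2 and 4, while 3 melatonin libraries were nearly identical and replicate 4 was lower. The log2 fold change of -0.18 ± 0.15 (SE) did not pass (limma, adjusted p = 0.555; 95% interval -0.53 to 0.18), and was -0.06 without control replicate 3, -0.08 without melatonin replicate 4 and -0.09 after quantile normalization.

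Daam1 was on the other side of 0. It had 8.08, 7.15, 7.37 and 6.63 FPKM in control and 8.56, 8.25, 7.36 and 7.97 FPKM in melatonin replicates 1 to 4. Melatonin replicates 1 and 2 exceeded every control library and the others lay inside the control range. The log2 fold change of 0.12 ± 0.069 (SE) did not pass (limma, adjusted p = 0.363; 95% interval -0.03 to 0.28). The 3 projection genes thus had log2 fold changes of -0.22, -0.18 and 0.12, none past the threshold.

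The order of the members by level was Gja1, Fscn1, Cdh2, Myo10, Tjp1, Gja4, Gjc1, Daam1, Cdh1 and Gja5. Neighbours overlapped in range over the 8 libraries in 3 places. Cdh2 exceeded Myo10 in 7 of 8 libraries, Myo10 exceeded Tjp1 in 4 of 8, and Gjc1 exceeded Daam1 in 7 of 8. All other neighbours kept their order in 8 of 8 libraries without overlapping ranges. The 10 genes lie on 10 different chromosomes.

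The members were read beside 5 lists of junction and projection genes, which together held 94 genes, 60 of them tested, the 9 tested members included. Again 0 of 60 passed the threshold (limma). An unadjusted p under 0.05 was found for 8 of 60 (13.3%), beside 19.1% of all tested genes. Of the 8, 4 were higher (beside 9.4% of all tested genes) and 4 lower with melatonin (beside 9.74%). Groups did not overlap in 8 of 60 (13.3%), beside 11.7% of all tested genes. Of these 8, 5 had melatonin above (beside 5.79% of all tested genes) and 3 below (beside 5.94%). The median log2 fold change was -0.03. Without the members, 7 of 51 (13.7%) had an unadjusted p under 0.05, 4 higher and 3 lower. Groups did not overlap in 7 of 51 (13.7%), and the median was -0.02. Gjc3 is among the 4 higher genes.

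Of the 13 tested adherens junction genes other than Cdh1 and Cdh2, 8 had a positive and 5 a negative fold change, with a median of 0.05. Ctnnb1 (beta-catenin, which binds cadherin tails), the most abundant of the list, had 97.6 ± 1.95 FPKM for control against 101.3 ± 3.28 for melatonin (n = 4 each, SD; limma, adjusted p = 0.531). Jup (plakoglobin, a catenin shared by adherens junctions and desmosomes) had 10.2, 9.05, 8.57 and 10.9 FPKM in control and 12.8, 13.6, 11.2 and 11.8 FPKM in melatonin replicates 1 to 4. All 4 melatonin libraries exceeded all control libraries for Jup, with a log2 fold change of 0.32 ± 0.085 (SE; limma, adjusted p = 0.146). Nectin3, an adhesion molecule of the same junctions, had 6.21 ± 0.49 and 7.51 ± 0.68 FPKM, also without overlap (adjusted p = 0.173, limma).

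Of the 14 tested tight junction genes other than Tjp1, 6 had a positive and 8 a negative fold change (median -0.01). Cldn11, a claudin, had 2.83, 2.42, 2.69 and 2.31 FPKM in control and 3.41, 3.68, 3.63 and 3.37 FPKM in melatonin replicates 1 to 4. The groups did not overlap for Cldn11 (log2 fold change 0.35 ± 0.071 SE; limma, adjusted p = 0.121), which had the smallest p of all 60 listed genes. Jam2, the most abundant junctional adhesion molecule here, had 84.6 ± 9.55 and 88.4 ± 6.36 FPKM, and Jam3 had 12.5 ± 0.85 and 11.3 ± 1.22 FPKM (SD, n = 4 each; limma, adjusted p = 0.706 and 0.370).

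Desmosome genes, none of them a member, had fold changes of both signs, with 3 of 6 tested positive and 3 negative (median -0.03). Dsp (desmoplakin, which links desmosomes to intermediate filaments) had 30.3, 42.2, 41.5 and 30.5 FPKM in control and 24.5, 20.8, 25.7 and 29.6 FPKM in melatonin replicates 1 to 4. Its groups did not overlap, with a log2 fold change of -0.50 ± 0.14 (SE; limma, adjusted p = 0.148), the opposite direction to Jup. The summed surface epithelium markers given beside Cdh1, in which Krt8 weighs most, were also lower in all melatonin libraries. Of the single markers, Krt18, Upk3b, Msln and Krt7 overlapped between the groups. The markers' part in the Dsp values was not tested. Dsc2 (desmocollin) and Cdh5 (the endothelial cadherin), named after their values were seen, were the remaining listed genes with an unadjusted p under 0.05, at 2.17 ± 0.33 against 1.21 ± 0.54 FPKM and at 3.69 ± 0.72 against 2.62 ± 0.54 FPKM (SD, n = 4 each; limma, adjusted p = 0.173 and 0.217).

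All 17 genes of the filopodium and projection list other than the 3 members were tested, and 11 had a negative and 6 a positive fold change (median -0.04). Beside Myo10, no gene of that list had an unadjusted p under 0.05. Ezr (ezrin, which links actin to the membrane) had 38.3 ± 6.70 and 31.8 ± 1.39 FPKM (limma, adjusted p = 0.276). Sec24b, a part of the coat of vesicles leaving the endoplasmic reticulum, had 21.2 ± 1.29 and 23.1 ± 0.64 FPKM (SD, n = 4 each; limma, adjusted p = 0.261), without overlap.

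**Figure D3:**
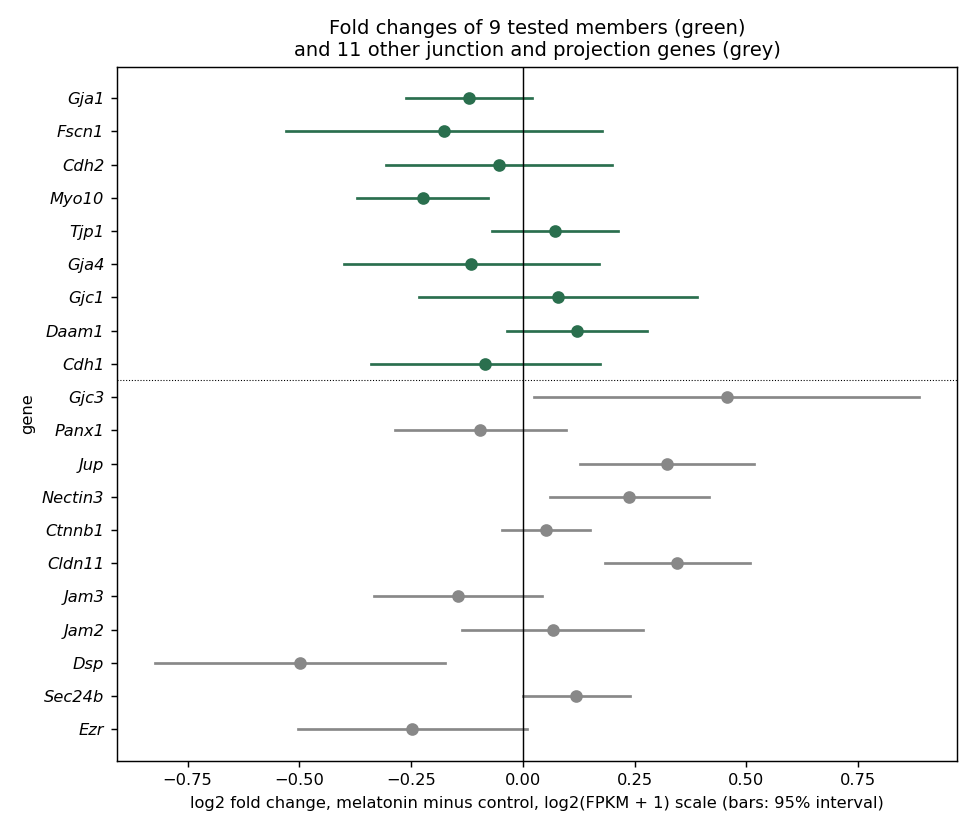
Log2 fold change (x axis, melatonin minus control, log2(FPKM + 1) scale) with 95% intervals of 9 tested members (green) and 11 other junction and projection genes (grey). Among the members the interval of Myo10, -0.37 to -0.08, is the 1 that does not include 0, before adjustment over 14738 genes.

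**Figure D4:**
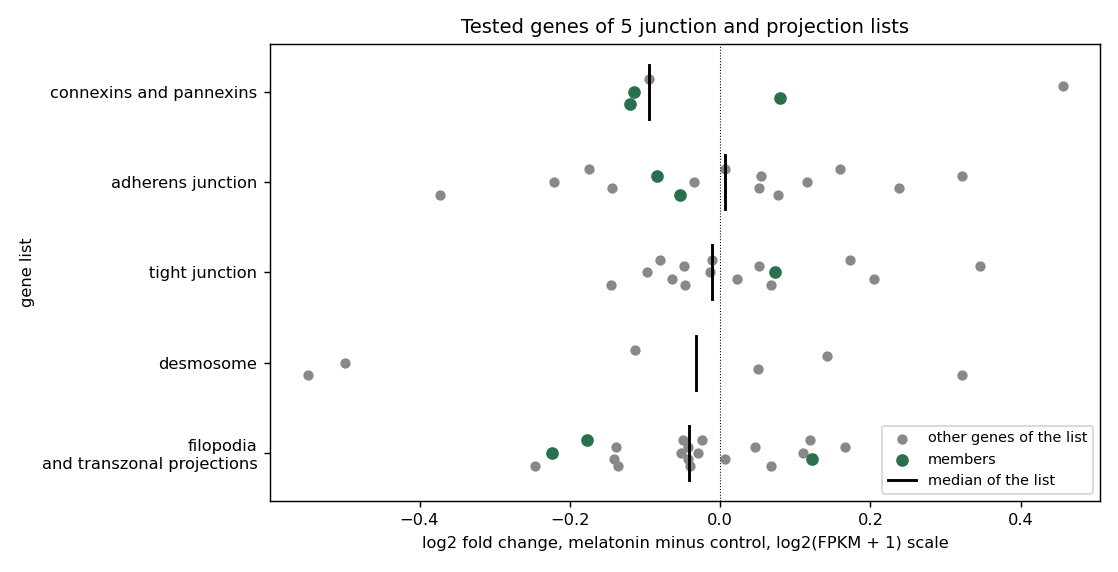
Log2 fold change (x axis) of each tested gene in 5 lists (rows), members in green, other genes in grey and list medians as black lines. Medians lie between -0.10 and 0.01, and Dsp (-0.50), Dsc2 (-0.55) and Gjc3 (0.46) are the farthest genes from 0.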

How the data were processed

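Libraries were made from total RNA with a NEBNext Ultra kit, per the labels' protocols. HISAT2 2.0.5 and mm10 are named in the submitters' processing notes. How fragments were counted, with which annotation and whether by strand, is not given in the sources used here. What the authors deposited is FPKM per gene, per the file headers, and the series table differed from the 8 sample files in 0 cells.

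Depth was recovered from the values. With GENCODE M21 exon lengths, matched for 54409 of 55157 genes, 98.7% to 98.9% of low values (up to 30 fragments) were whole fragments within 0.05, and 13748 of 14738 tested genes were whole in all libraries.

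Genes averaging 1 FPKM or more entered a limma fit (version 3.58.1, R 4.3.3, with a trend on mean level) of log2(FPKM + 1), which understates changes of low genes; p-values were adjusted by Benjamini-Hochberg over all 14738 genes, with a threshold of 0.05. Ratios of 2 genes were compared by exact permutation over 70 assignments (two-sided), with a smallest p of 0.0286. After adjustment over the 4 ratios, a single ratio at that p would not pass 0.05, so this test could not find a change in 1 ratio alone. Tested on simulated data for melatonin against control (200 of 14738 genes altered), the limma fit found 59.7% of log2 changes of 0.5, 80.6% of 1 and 98.5% of 2, and called 11 unaltered genes. The simulation drew every value independently, without the structure that genes share between these libraries, so its rates need not hold here. It held no change as small as those of the members.

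The members and lists were chosen with earlier results of these data known. Named genes are the members, Gdf9, the 2 other genes with the smallest p and the most abundant gene of each list, connexins of at least 1 FPKM, cell type markers beside results, and the 3 genes most correlated with Gja1 and with Gja4. Alternatives were no filter and a filter of 5 FPKM, another pseudocount, quantile and median-ratio scaling, array weights, a replicate block, limma-voom on fragments, each library left out and, chosen after seeing the data, removal of GC and length trends. Replicate numbers were not taken to pair libraries, since deviations of same-numbered libraries from their group means correlated at 0.001, -0.10, 0.15 and 0.04.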

Additional observations from a re-analysis of the deposited data

Results flagged for a closer look

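The values of 3 genes stood far from the other 3 libraries of their group, by the gap to the nearest library relative to the range of the group. Cdh2 was at 41.1 FPKM in control replicate 1 and at 30.8 to 32.2 FPKM in the other control libraries. Fscn1 was at 121 FPKM in melatonin replicate 4 and at 160.4 to 162 FPKM in the other melatonin libraries. Nectin3 was at 5.47 FPKM in control replicate 3 and at 6.38 to 6.52 FPKM in the other control libraries. With 52 sets of 4 values examined, chance flags about 1 in 20 sets, or 2.6, so 3 is near that number.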

How the results depend on the processing

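No member passed the threshold in any of 152 fits under alternative settings of the 9 tested members (smallest adjusted p 0.108), and 149 kept the direction. The 3 with another sign left out 1 library: Gjc1 ranged from -0.056 to 0.16 and Cdh2 from -0.12 to 0.040 when each library was left out in turn. Of the other listed genes Jam2 ranged from -0.0049 to 0.13. The count of genes called over all genes was 0 in 16 of 18 alternatives. It was sensitive near the threshold: at an adjusted p under 0.1 it was 0 in the reported fit, but 318 with array weights, 215 with limma-voom, 203 with the filter of 5 FPKM, 169 without control replicate 4 and 70 without melatonin replicate 3. At 0.05 it was 1 (the microRNA gene Mir6947) with no filter on low values, and it ranged from 0 to 1 when each library was left out, the 1 being C1rb without control replicate 1. Both gene names were chosen after their values were seen. The filter of 5 FPKM shifted the split at an unadjusted p under 0.05 from 1385 higher and 1436 lower to 789 and 1217, and quantile normalization to 1337 and 1180. Differences in the 4 ratios were close to 0, so their sign turned easily. Leaving out each library, the log2 difference ranged from -0.083 to 0.15 for Gja1:Gja4, from -0.061 to 0.26 for Cdh2:Cdh1, from -0.054 to 0.055 for Gja4:Gdf9 and from -0.050 to 0.081 for Cdh1:Gdf9. With 1 FPKM added to both terms it was -0.0046 for Gja1:Gja4 and 0.0022 for Gja4:Gdf9. With 3 against 4 libraries few assignments are possible, and no ratio passed (exact permutation, smallest adjusted p 0.686). With the replicate number as a block 0 genes were called (smallest adjusted p 0.0613), Myo10 had an adjusted p of 0.179, and the block changed no call; the smallest p of the ratios is then 0.125. Depth limits statements on Gja5 most (46 fragments over the 8 libraries). The other members had at least 1980 over the 8 libraries. The lowest of these was Cdh1, with 196 to 317 fragments in single libraries, so counting noise is part of its spread.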
